A study of Homo sapiens with 6 samples.

Results

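The 10 amino acid transporter genes described here were followed in MM.1S cells given enzastaurin. Members were taken by gene symbol: every probe set of the array whose annotation gave exactly 1 symbol, that symbol being SLC7A5, SLC3A2, SLC7A11, SLC7A1, SLC1A5, SLC1A4, SLC38A1, SLC38A2, SLC38A7 or SLC43A1. This gave 22 probe sets for the 10 genes, among 11963 genes with such a probe set. Of the 22, 17 passed a filter that kept the brighter 50 percent of probe sets, at least 1 for each gene, and the 10 genes were tested among 6838. The filter used the mean over both treatments, and SLC7A11 and SLC43A1 passed it through the enzastaurin arrays alone, so that counts and medians over the 10 are descriptions.

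MM.1S is an established multiple myeloma line, a malignancy of antibody-secreting plasma cells. Enzastaurin is an inhibitor of protein kinase C, with highest affinity for the beta isoform. The groups were MM.1S cells given enzastaurin (Enza) for 3, 6 or 12 h and untreated cells (noTx) of the same hours, and each of these 6 conditions has 1 Affymetrix array. The dose is not given in the sources used here. All values come from 1 line and nothing states that the arrays came from separate cultures. P-values therefore measure only scatter within these arrays, in part that of other genes, and it may be technical. In the test of all 3 times, the scatter of a gene is the change of its ratio between times. A real change of the effect with time thus counts there as error. With bulk RNA, fewer cells with a transcript and less transcript per cell cannot be told apart.

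Amino acids cross membranes through solute carriers that work as exchangers, as sodium-coupled importers or as facilitators. In the heteromeric exchangers a light chain carries the substrate, and the heavy chain, SLC3A2, brings it to the plasma membrane. Cells short of an amino acid, or under endoplasmic reticulum stress, phosphorylate eIF2alpha and raise translation of the transcription factor ATF4, and many transporter genes are known ATF4 targets. MYC is a known activator of several of the same genes, and plasma cells have a high demand for amino acids because they secrete antibody.

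The ATF4 site is an amino acid response element with the core TGATGNAA, so the promoter windows of the members were searched for it, on both strands. The windows were those of RefSeq (GRCh38.p14), from 250 bases before to 50 after a gene start. They covered 9 of the 10 genes with 17 windows, SLC7A11 being the gene with no entry. The core was found in 5 of the 17 windows, 1 each of SLC3A2, SLC7A1, SLC1A5, SLC1A4 and SLC38A1, and in 3.62 percent of all 35116 windows. Stretches of 30 bases are given below on the strand of the gene, with the core in capitals (as its reverse complement in SLC3A2 and SLC1A4). The search itself fixed the bases in capitals, apart from the N, so their likeness is not a result.

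SLC3A2, chr11:62881719-62881748, plus strand: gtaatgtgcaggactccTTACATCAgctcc
SLC7A1, chr13:29595663-29595692, minus strand: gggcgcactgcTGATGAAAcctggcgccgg
SLC1A5, chr19:46784893-46784922, minus strand: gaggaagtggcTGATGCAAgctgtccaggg
SLC1A4, chr2:64989381-64989410, plus strand: gcggctcccgtTTGCATCAtctccagccgg
SLC38A1, chr12:46266502-46266531, minus strand: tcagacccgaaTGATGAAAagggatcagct

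Counting from the gene start of the window with the match, it began at base -97 in SLC1A5, -7 in SLC1A4, -4 in SLC38A1, 8 in SLC7A1 and 38 in SLC3A2. The window of SLC7A5 held none of these cores. It held an E-box, CACGTG, the site of MYC and related factors, at base -130. E-boxes were found in 4 of the 17 windows, 1 each of SLC7A5, SLC1A5, SLC38A7 and SLC43A1, and in 7.26 percent of all windows. The antioxidant response core TGACNNNGC, the site of NFE2L2, was found in 4 of 17 member windows, 1 each of SLC7A5, SLC3A2, SLC7A1 and SLC1A5, and in 13.3 percent of all windows. SLC1A5 has 3 windows, and its E-box and antioxidant core lie in a different window from its amino acid response core. The 250 bases before the start are given for SLC7A5 and for the SLC3A2 window with matches, the 2 chains of 1 exchanger, with the E-box of SLC7A5 and the antioxidant core of SLC3A2 in capitals. The antioxidant core of SLC7A5 begins at base -2, runs past the start and is not within the bases shown. These matches are letters in a window, and no binding was measured.

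SLC7A5, chr16:87869508-87869757, minus strand: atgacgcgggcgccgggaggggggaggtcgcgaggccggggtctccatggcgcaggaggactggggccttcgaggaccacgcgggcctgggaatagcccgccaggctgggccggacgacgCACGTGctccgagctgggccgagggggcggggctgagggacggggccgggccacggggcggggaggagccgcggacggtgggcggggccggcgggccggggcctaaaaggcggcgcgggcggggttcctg
SLC3A2, chr11:62881449-62881698, plus strand: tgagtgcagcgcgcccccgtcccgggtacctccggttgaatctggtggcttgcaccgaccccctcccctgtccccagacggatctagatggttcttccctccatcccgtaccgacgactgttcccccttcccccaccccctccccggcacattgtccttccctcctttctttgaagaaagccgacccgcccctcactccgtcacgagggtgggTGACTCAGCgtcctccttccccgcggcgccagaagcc

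The arrays were alike in median intensity, at 62.2 to 67.6, but not in other respects. The mean log2 intensity of 6 ribosomal RNA control probe sets was 5.51 in untreated cells at 3 h and 9.72 with enzastaurin. At 6 h it was 10.94 untreated and 5.70 with enzastaurin, and at 12 h 9.24 and 5.31. For ACTB, the 3' over 5' probe set difference in log2, a sign of RNA integrity, was 1.16 to 1.89 untreated and 2.004, 0.57 and 0.86 with enzastaurin at 3, 6 and 12 h. For GAPDH the same difference was 0.23 to 0.30 untreated and 0.23, -0.11 and 0.24 with enzastaurin. The summed intensity of 10 plasma cell markers was 19285 to 25542 untreated and 19059 to 22360 with enzastaurin. Their median was 1499, 2832 and 2767 untreated and 1870, 1409 and 1030 with enzastaurin at 3, 6 and 12 h. Single markers differed in direction. At 12 h TNFRSF17 read 4474 untreated and 528 with enzastaurin, while the bright marker JCHAIN read 3874 and 7091. XBP1 was at 5010 to 6896 throughout. Of 12 markers of T, NK, myeloid and stromal cells the highest reading was 145 (COL1A1), and their sum was 512 to 648 untreated and 543 to 640 with enzastaurin. The lowest were LYZ and CD3D, at 1.0 to 7.55 and 4.41 to 14.4. Others read higher, such as CD14 at 25.6 to 37.7, CSF1R at 26.2 to 54.8, CD3E at 30.4 to 53.1 and PECAM1 at 96.2 to 142. CD2, a T cell marker, read 30.9 to 43.1, so intensities of that size are near the level of genes these cells should lack. COL1A1 and COL1A2, of stromal cells, read 90.9 to 145 and 73.2 to 123, so that level differed between probe sets.

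In the test of all 3 times together, no transporter was called. Ratios are log2 of enzastaurin over untreated intensity. The effect is the mean of the 3 time-matched ratios with a moderated standard error (limma, n = 3 times, with no replicates at a time). Of all genes tested 0.0585 percent were called at an adjusted p under 0.05, and 0 of the 10 transporters were. At an unadjusted p under 0.05 limma gave 5 of the 10 and 370 of 6838 genes. The mean ratio was above 0 in 8 of the 10 transporters, with a median of 0.38, against 43.4 percent of all genes and a median of -0.05. The ratio was above 0 at all 3 times in 4 of the 10, namely SLC3A2, SLC7A1, SLC38A1 and SLC38A7, against 9.14 percent of all genes. For SLC7A1 and SLC38A7 this held only on the reported probe set. The second kept probe set was below 0 at 6 h for SLC7A1 (-0.17) and at 12 h for SLC38A7 (-0.02).

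SLC3A2, the heavy chain also known as CD98, had the highest mean ratio of the 10. At 3, 6 and 12 h the untreated arrays read 398, 526 and 458, and those with enzastaurin 985, 1011 and 1449.9. Every treated array lay above every untreated one, and the gap was already present at 3 h. The folds were 2.47, 1.92 and 3.16, with a mean log2 ratio of 1.30 (SE 0.28, adjusted p = 0.226). With ribosomal RNA intensity as a covariate the ratio was 1.32 (adjusted p = 0.00163), and 0.468 percent of all genes were called higher in that fit, whose prior variance was estimated as having infinite degrees of freedom. SLC3A2 has 1 probe set, so no second reading of it was available.

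SLC7A5, the light chain LAT1, which exchanges glutamine for leucine and other large neutral amino acids, was lower with enzastaurin at 6 and 12 h, when its heavy chain was higher. The untreated arrays read 762, 339 and 633, and those with enzastaurin 977, 103 and 162. The treated arrays at 6 and 12 h lay below all 3 untreated arrays, while the treated array at 3 h was the highest of the 6. The log2 ratios were 0.36, -1.72 and -1.97, which is 3.29-fold lower at 6 h and 3.92-fold lower at 12 h. The mean was -1.11 (SE 0.42, adjusted p = 0.791), and the slope per doubling of hours was -1.16 (SE 0.37, adjusted p = 0.0841), which was not called. Its adjusted p was 0.264 after quantile normalization and 0.404 with equal medians. With the ribosomal RNA covariate the mean was -0.71 (adjusted p = 0.629). The difference between the ratios of SLC3A2 and SLC7A5 was 0.95 at 3 h, 2.66 at 6 h and 3.63 at 12 h on the log2 scale, with 1 pair of arrays for each. SLC7A5 also has 1 probe set with a single symbol, and probe sets annotated to its pseudogene copies together with other genes were not used.

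SLC7A11, the light chain xCT, imports cystine for glutathione in exchange for glutamate, and its ratio was highest at 12 h. The untreated arrays read 143, 34.5 and 38.8, and those with enzastaurin 131, 51.0 and 249. Both 3 h arrays were alike and high, both 6 h arrays were low, and at 12 h the treated array alone was high. The log2 ratios were -0.13, 0.57 and 2.68, the last being 6.43-fold, though the untreated levels at 6 and 12 h lie where genes foreign to these cells lie, so that fold is not exact. The slope was 1.41 per doubling of hours (SE 0.41, adjusted p = 0.0429). That is under the threshold, where 0.512 percent of all genes were called upward and 0.921 percent downward. None of the other 9 transporters was called in the slope test, where limma gave 2 of the 10 and 754 of all genes at an unadjusted p under 0.05.

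The SLC7A11 slope is a weak call. The gene was tested because its enzastaurin values, with a geometric mean of 118, lifted it over the filter at 63.3, which its untreated values, at 57.6, did not reach. The prior of the slope fit was estimated as having infinite degrees of freedom, so its error rests wholly on the variance of all genes, and on simulated data this fit made more false calls than its nominal rate. Over the alternatives tried the adjusted p ran from 0.0177 to 0.336. It was 0.202 after quantile normalization, 0.336 with equal medians of the tested genes and 0.0522 with no filter on low values. The other kept probe set of SLC7A11 also passed through its enzastaurin arrays alone, and it read 76.4, 30.5 and 32.7 untreated and 78.2, 58.1 and 244 with enzastaurin. Its log2 ratios of 0.03, 0.93 and 2.90 are as inexact, since the untreated 12 h value lies within the range of CD2. The remaining one, below the filter at 42.1 to 59.9, gave -0.15, 0.02 and -0.00. The mean ratio of SLC7A11 over the times was 1.04 (SE 0.47, adjusted p = 0.905), and it was 0.22 without the 12 h pair.

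**Figure D1:**
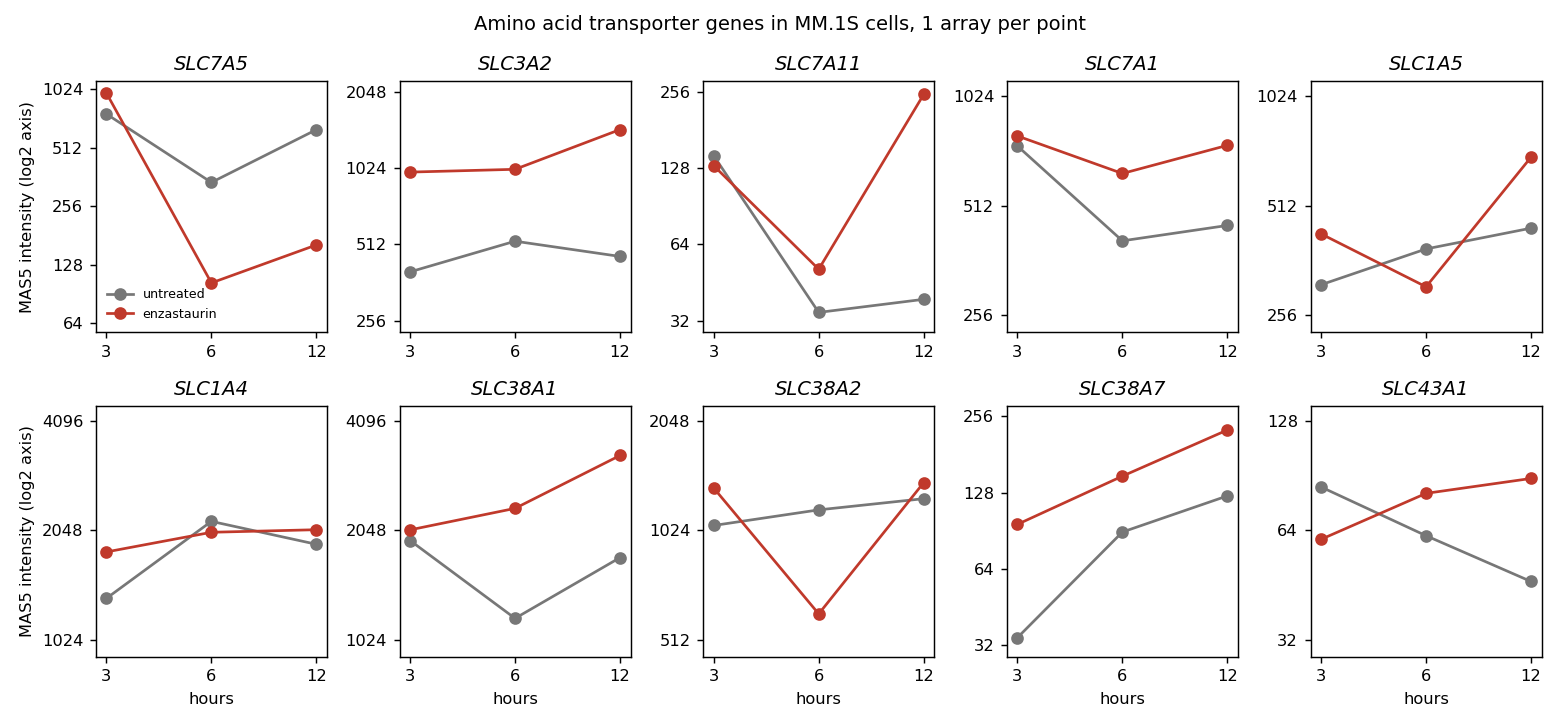
MAS5 intensity on a log2 axis (vertical) against hours (horizontal, evenly spaced) for the 10 transporter genes, 1 array per point, grey for untreated and red for enzastaurin, with no error bars because each point is 1 array. SLC3A2 stands apart from untreated cells at every time, from 985 to 1449.9 against 398 to 526, SLC7A5 lies below them at 6 and 12 h only, and SLC7A11 parts from them at 12 h.

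SLC7A1, the carrier CAT1 for arginine and lysine, which needs no heavy chain, was at 747, 410 and 452 untreated and 796, 628 and 750.2 with enzastaurin. The treated level stayed near that of 3 h while the untreated level was lower at 6 and 12 h, and the groups overlapped. Its log2 ratios were 0.09, 0.61 and 0.73 (mean 0.48, SE 0.28, adjusted p = 0.980). A second kept probe set gave 0.65, -0.17 and 0.49, so the 2 differed in sign at 6 h. The other 3 probe sets lay below the filter, and their mean ratios were -0.42, 0.37 and 0.66.

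The 2 members of the alanine, serine and cysteine family were not called in any fit given here. SLC1A5, the glutamine exchanger ASCT2, was at 311, 390 and 445 untreated and at 429, 307 and 696 with enzastaurin. Its log2 ratios were 0.46, -0.35 and 0.65, with 12 h highest, and the mean was 0.26 (SE 0.31, adjusted p = 0.990). SLC1A4, the exchanger ASCT1, was at 1333, 2169 and 1876 untreated and at 1788, 2024 and 2057 with enzastaurin. Its mean ratio was 0.15 (SE 0.22, adjusted p = 0.997), and the groups overlapped. The 4 probe sets of SLC1A4 had mean ratios of 0.14 to 0.54, and 1 of them, at 180 to 630.3, reached a ratio of 1.17 at 12 h.

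Among the sodium-coupled carriers, SLC38A1 (SNAT1), which takes up glutamine, was at 1922, 1175 and 1725 untreated and at 2056, 2355 and 3289 with enzastaurin. Every treated array lay above every untreated one, though at 3 h by little: the folds were 1.07, 2.004 and 1.91 (mean log2 ratio 0.68, SE 0.24, adjusted p = 0.691). SLC38A2 (SNAT2), a small neutral amino acid importer induced by amino acid lack in other cells, was at 1057, 1166 and 1252 untreated and at 1339, 604 and 1385 with enzastaurin. The treated 6 h array was thus the lowest of the 6 and the treated 12 h array the highest, with log2 ratios of 0.34, -0.95 and 0.15 (mean -0.15, SE 0.29, adjusted p = 0.999). The second probe set of SLC38A2 gave 0.29, -0.57 and -0.03, again lowest at 6 h.

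SLC38A7 (SNAT7), which exports glutamine from lysosomes, had higher values at later times in both treatments and higher values with enzastaurin at each time. It was at 34.3, 89.4 and 124 untreated and at 95.8, 148 and 226 with enzastaurin. The log2 ratios were 1.48, 0.73 and 0.86 (mean 1.03, SE 0.31, adjusted p = 0.535). Between 12 h and 3 h over both treatments its log2 difference was 1.55 (SE 0.38, adjusted p = 0.999). In that comparison 0 percent of all genes and 0 of the 10 transporters were called, and limma gave 148 genes and 2 transporters at an unadjusted p under 0.05. A second kept probe set gave smaller ratios of 0.35, 0.66 and -0.02, and the remaining one, below the filter, gave -0.46, -1.44 and -0.56. The 3 probe sets thus disagree, and the untreated 3 h value of 34.3 lies near the level of foreign markers.

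SLC43A1 (LAT3), a facilitator of leucine and other large neutral amino acids, had a low intensity of 84.2, 61.9 and 46.4 untreated and 60.5, 80.9 and 88.9 with enzastaurin. The untreated values were lower at the later times and the treated values higher. All of these values lay below the lowest reading of the stromal marker COL1A1, 90.9, so the ratios are not exact. Its log2 ratios were -0.48, 0.39 and 0.94 (mean 0.28, SE 0.35, adjusted p = 0.991), and its slope of 0.71 did not pass (SE 0.42, adjusted p = 0.556).

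**Figure D2:**
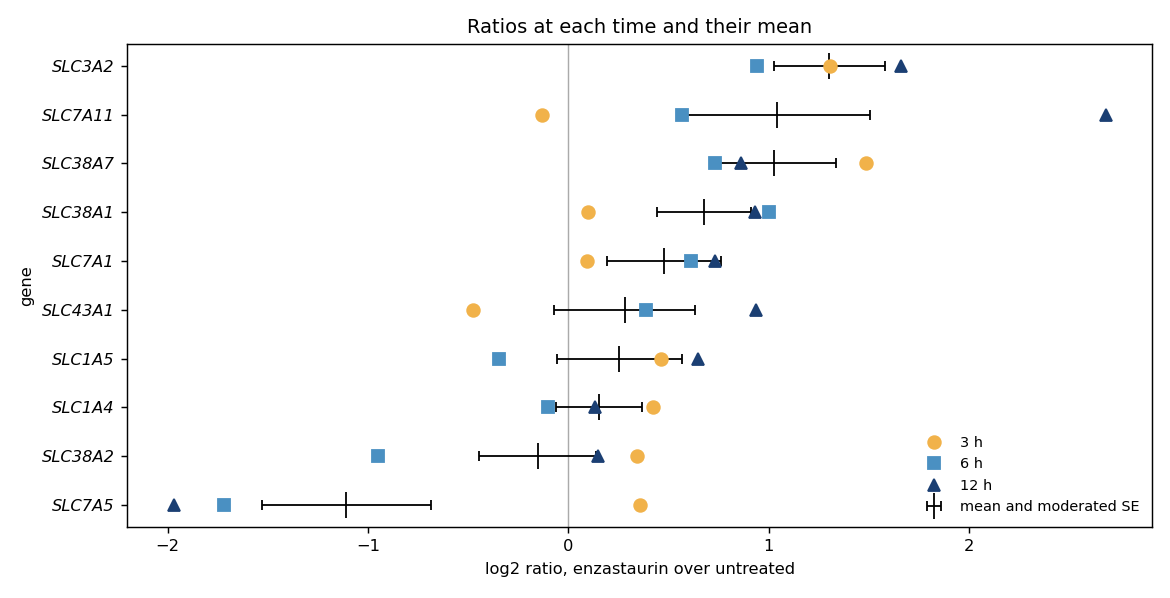
Log2 ratio of enzastaurin over untreated (horizontal) for each transporter gene (vertical), with a symbol for each time and a bar for the mean and its moderated standard error over 3 ratios. SLC3A2 and SLC38A7 lie at 0.73 or above at every time, SLC7A5 is at 0.36 at 3 h and at -1.72 and -1.97 later, and SLC7A11 reaches 2.68 at 12 h.

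At single times 1 array stood on each side, so genes at least 2-fold apart were counted with no test. At 3 h SLC3A2 and SLC38A7 were at least 2-fold higher, against 1.89 percent of all genes, and none of the 10 was 2-fold lower, against 2.65 percent. At 6 h SLC38A1 was higher by 2.004-fold, against 5.6 percent of genes, and SLC7A5 was lower, against 3.22 percent. SLC38A1 fell short of 2-fold at 6 h after quantile normalization or with equal medians. At 12 h SLC3A2 and SLC7A11 were higher, against 3.88 percent, and SLC7A5 was lower, against 10.4 percent. The median ratio of all tested genes at 12 h was -0.18. With equal medians the 265 higher and 712 lower genes at 12 h became 460 and 454 of the 6838 tested. There 5 of the 10 transporters were at least 2-fold higher, SLC38A1, SLC38A7 and SLC43A1 in addition. Of the 5, SLC7A11 and SLC43A1 had passed the filter through the enzastaurin arrays alone. The second kept probe set of SLC38A7 had a ratio of -0.02 at 12 h in the scaling as deposited. The groups did not overlap, with enzastaurin higher, in SLC3A2 and SLC38A1 of the 10 and in 3.47 percent of all genes.

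Without the 3 h pair the fit called 3 of the 10 transporters. SLC3A2 (1.30, SE 0.30, adjusted p = 0.0204) and SLC38A1 (0.97, SE 0.24, adjusted p = 0.0268) were higher, where 1.54 percent of all genes were. SLC7A5 was lower (-1.84, SE 0.34, adjusted p = 0.00379), where 2.08 percent of genes were. SLC7A11 had 1.62 (SE 0.47, adjusted p = 0.0648). Each value is the mean of 2 ratios (n = 2), and the error rests mostly on other genes, with a prior of 16.9 degrees of freedom. In these pairs ribosomal RNA intensity and the ACTB 3' to 5' ratio were both lower with enzastaurin. The GAPDH 3' to 5' difference in log2 was 0.23 and 0.30 untreated and -0.11 and 0.24 with enzastaurin at 6 and 12 h. The part of these array differences in the results was not tested. Among plasma cell markers, 3 of 9 tested were called lower in the same fit, namely TNFRSF17 (-2.05), IRF4 (-1.60) and SDC1 (-1.04), and their part was not tested either. Without the 6 h pair or the 12 h pair 0 of all 6838 genes were called, so the lack of called transporters is not particular to them. In those fits limma gave 169 and 134 genes at an unadjusted p under 0.05. The mean ratio of SLC7A5 was then -0.81 and -0.68, that of SLC38A1 0.51 and 0.55, and that of SLC3A2 1.48 and 1.12. For SLC1A5 it was 0.56 and 0.06.

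**Figure D3:**
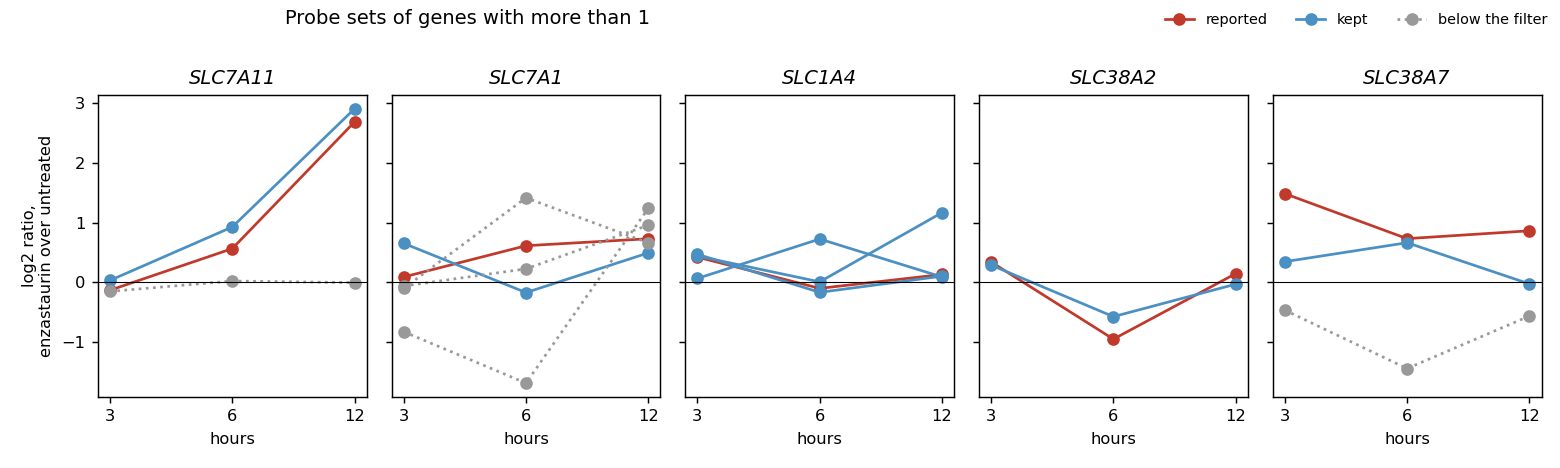
Log2 ratio of enzastaurin over untreated (vertical) against hours (horizontal) for every probe set of the 5 transporter genes with more than 1, red for the one reported, blue for others kept and dotted grey for those below the filter. The 2 kept probe sets of SLC7A11 reach 2.68 and 2.90 at 12 h, while those of SLC38A7 part at 12 h, at 0.86 and -0.02.

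Other genes of amino acid transport and its control were read from fixed lists, and in none of them was a gene called over the 3 times or in the slope. Of 8 other transporters tested, 5 had a mean ratio above 0, and limma gave 1 at an unadjusted p under 0.05. The largest mean ratios were those of SLC38A10 (0.64), the lysosomal cystine exporter CTNS (0.48), the aromatic amino acid carrier SLC16A10 (-0.37) and SLC43A3 (0.22). SLC43A3 was on the list as a relative of SLC43A1, but it carries purine nucleobases. Their median was 0.18, against 0.38 for the 10 transporters.

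Of 11 transcription factors known to act on transporter genes, 8 had a mean ratio above 0, and 4 had an unadjusted p under 0.05 in limma. ATF5, among those below 0, passed the filter through the untreated arrays alone. ATF4 itself had log2 ratios of 0.52, 0.07 and 0.17, while DDIT3 (CHOP) had a mean of 1.77 and ATF3 one of 1.63. CEBPB, a bZIP factor of the C/EBP family, had 0.45, 0.64 and 1.77. NFE2L2, the activator of antioxidant genes such as SLC7A11, had 0.47, 0.50 and 0.23. MYC had -0.66, -0.53 and -2.09, lower at each time, while SLC7A5 was higher at 3 h (0.36) and lower at 6 and 12 h. SLC1A5, SLC38A7 and SLC43A1, which also have an E-box, had mean ratios of 0.26, 1.03 and 0.28. A part of MYC in these ratios was not tested. Without the 3 h pair DDIT3 was called higher and MYC lower (adjusted p = 0.0250 and 0.0238).

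Of 12 other amino acid response genes 11 had a mean ratio above 0, with a median of 0.49, and 3 had an unadjusted p under 0.05 in limma. CHAC1, which degrades glutathione, read 25.4, 35.9 and 46.7 untreated, about the level of CD2, and 695, 52.2 and 287 with enzastaurin. It passed the filter through the enzastaurin arrays alone, and its mean ratio of 2.65 is not exact. The mean was 1.73 for DDIT4, which restrains mTORC1, and 0.81 for the pseudokinase TRIB3. Without the 3 h pair DDIT4 was called higher (adjusted p = 0.0145). PSAT1, of serine synthesis, had -0.22, 0.36 and 2.04, highest at 12 h as SLC7A11 was.

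Enzymes that use the imported amino acids, and some of related redox reactions, were read in the same way. Of 7 genes listed under glutathione 2 had a mean ratio above 0 and 1 had an unadjusted p under 0.05 in limma. That gene was TXNRD1, a thioredoxin reductase that does not make glutathione, with a mean of -0.64. The list also held MSRA, a methionine sulfoxide reductase. Among enzymes of glutathione synthesis GCLC had a mean of -0.21 and GSS 0.21. GCLM, the modifier subunit of glutamate-cysteine ligase, had -0.69, 0.67 and 1.25. Of 10 enzymes of glutamine, branched-chain amino acid and arginine use 6 were above 0, with none at an unadjusted p under 0.05 in limma. Of the 6, ARG2 passed the filter through the enzastaurin arrays alone. The largest mean ratios of the 10 were those of glutamine synthetase GLUL (-0.55), GOT2 (-0.45), BCKDHA (-0.36) and BCAT2 (0.30).

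Of 15 genes of amino acid sensing upstream of mTORC1, 4 had a mean ratio above 0 and 3 an unadjusted p under 0.05 in limma. The scaffold subunit LAMTOR2 had a mean of -0.82, the sestrin SESN1 -0.71, the Rag GTPase RRAGC 0.78 and LAMTOR3 0.70. Without the 3 h pair LAMTOR3 was called higher and LAMTOR2 lower (adjusted p = 0.0268 and 0.0299).

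The tested genes closest in pattern were those with the highest Pearson correlation of log2 intensity over the 6 arrays, given as a description. For SLC7A5 they were PPIH (0.99), SNRNP25 (0.98) and EIF3A (0.98), whose log2 ratios at 12 h were smaller, at -0.75, -0.34 and -0.53. For SLC3A2 they were TRAF6 (0.98), LHX6 (0.97) and OAS3 (0.97), and OAS3 had ratios of 1.70, 1.41 and 1.61. For SLC7A11 they were SIAH1 (0.95), SLC12A7 (0.95) and STX12 (0.94). The 6 arrays share treatment and time, and of the 6838 genes 143 exceeded 0.9 with SLC7A5, 40 with SLC3A2 and 9 with SLC7A11. Among the transporters themselves SLC7A11 correlated with SLC7A1 at 0.89, while SLC7A5 and SLC3A2 stood at -0.57.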

How the data were processed

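Each deposited value is a probe set's intensity on a linear scale, computed by MAS5 according to the submitters' processing notes. Its version, scaling target and detection calls were not given in the sources used here. Of 22277 probe sets, 19064 outside the controls had exactly 1 gene symbol, and symbols were updated by Entrez identifier through RefSeq. Intensities were floored at 1, which touched no value of the transporters, and log2 transformed. The probe set with the highest mean stood for each gene after a filter at a geometric mean of 63.3. The scaling as deposited was kept.

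Effects were fitted with limma 3.58.1 in R 4.3.3 with an intensity trend and the time point as a block, which left 2 residual degrees of freedom and a prior of 9.26. P-values were adjusted by Benjamini-Hochberg over all 6838 genes. The fits were tested on simulated data, where the slope fit exceeded its nominal rate of false calls. Named genes were all members, up to 4 genes per list by size of mean ratio, MYC, ATF4 and NFE2L2, and the 3 closest in pattern. Members and lists were chosen with earlier results of these data known. The alternatives tried were other scalings, filters, probe set rules, a pseudocount of 16, a prior without trend, no time point, a ribosomal RNA covariate and leaving out each time pair.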

Additional observations from a re-analysis of the deposited data

Results flagged for a closer look

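The SLC7A11 ratio was called in the slope test (limma, adjusted p = 0.0429), at 1.41 log2 units per doubling of hours. That call was lost with no filter on low values and under both other scalings. SLC7A11 had entered the test through its enzastaurin values alone. On simulated data the slope fit made more false calls than its nominal rate. The enzastaurin array was the higher one at 6 and 12 h and the lower one at 3 h. The untreated 3 h array, at 143, stood well above the untreated 6 h and 12 h arrays, at 34.5 and 38.8. No group held enough arrays for a test of single outlying samples.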

How the results depend on the processing

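With 1 array for each treatment and time, the count of called genes moved more than the values of the transporters. The effect over 3 times called 4 genes as reported, 1 with no filter, 0 with no intensity trend in the prior (360 at an unadjusted p under 0.05 in limma), 2 with no time point in the fit and 74 with the ribosomal RNA covariate, where 1 of the 10 transporters (SLC3A2) was called. Leaving out a time pair gave 0 to 247 calls, the 247 without the 3 h pair. The slope called 98 genes as reported, 7 after quantile normalization, 0 with equal medians of the kept genes (675 at an unadjusted p under 0.05 in limma) and 151 with no filter. The cause was not tested.

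Genes at least 2-fold apart at 12 h numbered 460 higher and 454 lower with equal medians. With a pseudocount of 16, 78 genes were higher and 126 lower at 3 h. Over every kept probe set, a larger number of features, 213 were higher and 285 lower at 3 h, 588 and 348 at 6 h and 426 higher and 1000 lower at 12 h. The mean ratio of SLC38A2 changed sign with the covariate (0.0058) and ran from -0.40 to 0.24 as time pairs were left out, and that of SLC43A1 ran from -0.045 to 0.66. The slope of SLC38A2 changed sign after quantile normalization (0.0017). Intensities near those of foreign cell markers limit the folds of SLC7A11, SLC38A7, SLC43A1 and CHAC1. No paired analysis by replicate number was made because the labels carry none, and the time point was the block.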
